A study of Mus musculus with 9 samples.

Results

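The integrated stress response and the unfolded protein response of the endoplasmic reticulum (ER) were followed through 10 genes, Atf4, Atf5, Ddit3, Trib3, Chac1, Asns, Sesn2, Ddit4, Xbp1 and Hspa5. They were taken by gene symbol from the 47729 genes counted in RNA-seq libraries of mouse midbrain dopamine (DA) neurons, and each symbol matched 1 gene identifier. Dot1l encodes the methyltransferase of lysine 79 of histone H3, and the question was whether these stress genes differed in level between genotypes of Dot1l. All embryos were E15.75 and of the C57/Bl6 strain, and carried Pitx3-Cre/+, which drives Cre recombinase in post-mitotic DA neurons, together with the Rosa-lox-stop-lox-Yfp reporter that Cre switches on. They differed in an allele of Dot1l with a floxed exon 5, and are called WT (Dot1l +/+), het (Dot1l fl/+) and fl/fl (Dot1l fl/fl). The controls thus also carried Cre and the reporter. YFP-positive cells were dissociated with papain and sorted, and each library was a pool of embryos. Of 9 labelled samples, 8 were analysed as libraries, 3 WT, 3 het and 2 fl/fl, while fl/fl 3 was not used here.

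In the integrated stress response, kinases that sense amino acid shortage, viral RNA, haem shortage or unfolded ER proteins phosphorylate the initiation factor eIF2, which lowers general translation while the mRNA of the transcription factor ATF4 is translated more. ATF4 then drives genes of amino acid supply, among them Asns, and regulators such as Ddit3, Trib3, Chac1, Sesn2, Ddit4 and Atf5. In the unfolded protein response, the ER sensor IRE1 splices the Xbp1 mRNA, and XBP1 and ATF6 drive ER chaperones such as Hspa5. Counts per gene hold the abundance of an mRNA and show neither the translation of Atf4 nor the splicing of Xbp1.

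The response elements that these factors are known to bind were looked for in the promoter windows of RefSeq on GRCm38.p6, which run from 250 bases before to 50 bases after a gene start. All 10 genes had a window, and Atf5 had 2. The C/EBP-ATF response element was searched as TGATGNAA on both strands and was found in 3 of these 11 windows, those of Asns, Chac1 and Trib3, against 3.97% of all 32851 windows. The ER stress element, CCAAT followed after 9 bases by CCACG, was found in the Hspa5 window and in 0.119% of all windows. The unfolded protein response element TGACGTGG was in none of the 11 windows and in 0.676% of all. The stretches that hold the matches are shown here because they hold the elements that ATF4 and ATF6 are known to bind, with the motif letters in capitals and each stretch read 5′ to 3′ on the strand of its gene.
Asns, minus strand, chr6:7693214-7693243: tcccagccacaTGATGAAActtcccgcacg
Chac1, plus strand, chr2:119351003-119351102: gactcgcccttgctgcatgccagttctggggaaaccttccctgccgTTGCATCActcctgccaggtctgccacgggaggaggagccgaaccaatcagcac
Trib3, minus strand, chr2:152344039-152344138: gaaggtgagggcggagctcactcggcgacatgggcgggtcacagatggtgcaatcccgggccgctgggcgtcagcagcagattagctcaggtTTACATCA
Hspa5, plus strand, chr2:34772019-34772048: acttcaCCAATcggaggcctCCACGacggg
The Asns match lay 23 to 16 bases before the RefSeq start, in the forward orientation. The Chac1 match lay 193 to 186 bases before the start and the Trib3 match at bases 15 to 22 after it, both in the reverse orientation. The ER stress element of Hspa5 lay 65 to 47 bases before the start. In the GENCODE M21 annotation, Asns and Hspa5 begin further upstream than in RefSeq, and their matches fell in an untranslated exon of the gene. The matches of Chac1 and Trib3 fell outside the gene, and Trib3 begins further downstream in GENCODE than in RefSeq. A match is a description of sequence and not of binding.

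Libraries held 13616922 to 43674673 counts in genes, the fl/fl libraries being the shallowest, and a count of 3 corresponded to between 0.0687 and 0.22 CPM (counts relative to the library total after TMM scaling), which covers counting error only. Dot1l itself was at 84.6 to 105 CPM in WT and at 65.6 to 76.2 CPM in het. The library labelled fl/fl 1 had 64.9 CPM, and the library labelled fl/fl 2 had 99.1 CPM, inside the WT range. Counts over the whole gene do not separate the floxed exon from the rest, so fold changes of several of the 10 genes and medians of several lists are also given without this library. As the tissue label says, 14 markers of midbrain DA neurons were abundant, and their levels summed to between 5846 and 8239 CPM, led by Aldh1a1 at 688 to 1314 CPM. The lowest sums were in the libraries labelled fl/fl, at 5846 and 6964 CPM, below all WT libraries, and fewer DA neurons and less of these mRNAs per neuron cannot be told apart in pooled cells.

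Levels among the 10 genes were compared per kilobase of exon, as CPM per kb. In WT, Atf4 (97.7 ± 4.70 CPM per kb, SD, n = 3) and Hspa5, the ER chaperone BiP (92.4 ± 3.46), were the most abundant, and their libraries overlapped. Their levels exceeded those of 97.8% of 17925 expressed genes. Ddit4, an inhibitor of the growth kinase complex mTORC1, followed at 37.2 ± 6.04 CPM per kb, above all libraries of the next gene. Xbp1 (25.8 ± 2.93) and Asns, asparagine synthetase (22.4 ± 2.61), overlapped each other and stood higher than 87.9% and 86.7% of genes. The DA neurons of all genotypes thus held the ATF4 and XBP1 messages in abundance. The genes most tied to prolonged stress were far lower. Ddit3, the transcription factor CHOP that is linked to cell death under ER stress, was at 5.80 ± 1.02 CPM per kb, Atf5, a factor translated like ATF4, at 4.32 ± 1.38, Chac1, an enzyme that degrades glutathione, at 3.52 ± 1.06, and Sesn2, a leucine sensor upstream of mTORC1, at 2.63 ± 0.25. In WT libraries Ddit3 overlapped Atf5, Atf5 overlapped Chac1 and Chac1 overlapped Sesn2. Trib3, a pseudokinase that feeds back on ATF4 and CHOP, was lowest, without overlap, at 0.486 ± 0.353 CPM per kb, above 20% of genes and with 9 to 49 counts per library. The order of the means was the same in all 3 genotypes.

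**Figure D1:**
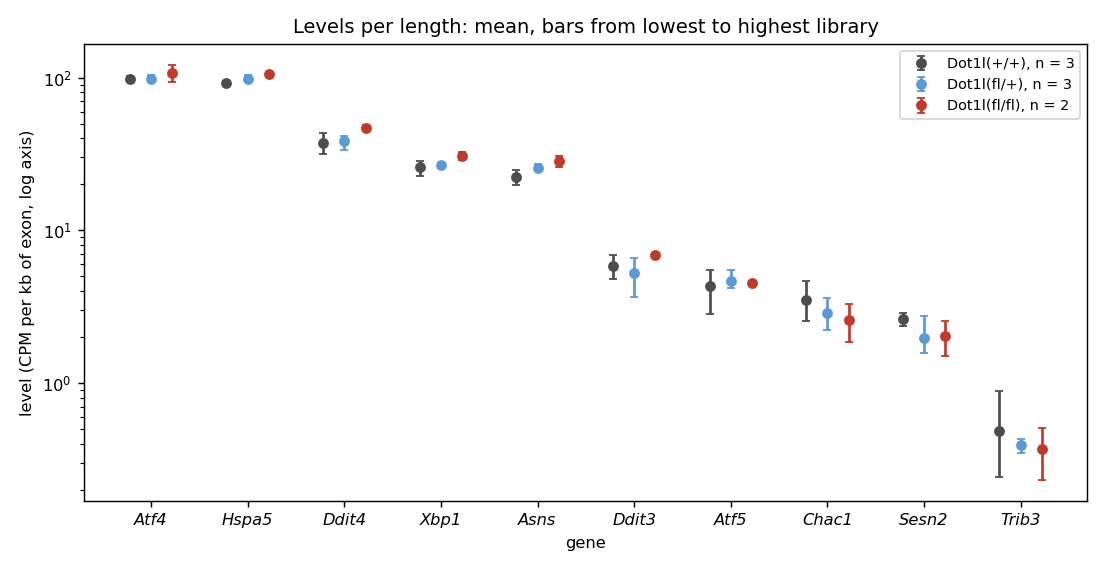
Level of each of the 10 genes in CPM per kb of exon on a log axis, as the mean of each genotype, with bars from the lowest to the highest library. Atf4 and Hspa5 stand near 100 CPM per kb and Trib3 under 1 in all 3 genotypes.

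fl/fl was first compared with WT. Hspa5, Xbp1, Ddit4, Asns and Ddit3 were more abundant in both libraries labelled fl/fl than in every control library, with fitted ratios of the genotypes of 1.14 to 1.27, but none of the 10 genes passed the test after adjustment. Atf5 was close to its control level, Atf4 was higher in only 1 of the 2 libraries, and the averages of Chac1, Sesn2 and Trib3 were lower. The test was the quasi-likelihood F test of edgeR on counts, with Benjamini-Hochberg adjustment over the 17988 genes past the filter on low counts, which all 10 genes passed, and an adjusted p under 0.05 as the threshold. This test called 0 of 17988 genes (percent called 0.0), and 1667 genes (9.27%) had an unadjusted p under 0.05. Of the 10 genes, Asns, Ddit4, Xbp1 and Hspa5 (4 of 10) had an unadjusted p under 0.05 with a higher level in fl/fl, against 4.24% of all genes, and none had a lower level at that p, against 5.03%. With 5 of the 10 genes, both fl/fl libraries lay above all WT libraries, against 12.1% of all genes, and with none did both lie below, against 11.6%. DESeq2 called 197 genes of the whole table, none of them among the 10, and gave no adjusted p for 5 of the 10, Ddit3, Trib3, Chac1, Sesn2 and Atf5.

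Among the ER genes, Hspa5 was at 397, 402 and 374 CPM in WT 1 to 3, at 412, 439 and 395 CPM in het 1 to 3, and at 445 and 446 CPM in the libraries labelled fl/fl 1 and 2. The fl/fl libraries were the highest of the 8 and nearly equal to each other. The log2 fold change over WT was 0.19 ± 0.09 (SE), or 1.14-fold (95% confidence interval 1.00 to 1.30), with an adjusted p of 0.537 (edgeR). Xbp1 had 85.6, 92.3 and 73.6 CPM in WT, 87.4, 83.6 and 89.97 CPM in het, and 94.1 and 106 CPM in fl/fl. Both fl/fl libraries were above the other 6, the lower by a narrow margin. Its log2 fold change was 0.26 ± 0.12, or 1.20-fold (1.00 to 1.43), with an adjusted p of 0.529 (edgeR).

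Among the targets of ATF4 that act on amino acids and growth, Asns had 60.8, 68.5 and 54.2 CPM in WT, 68.0, 66.6 and 74.9 CPM in het, and 83.7 and 71.3 CPM in fl/fl. The fl/fl libraries were above the controls, while the library labelled fl/fl 2 was inside the range of het. The log2 fold change over WT was 0.34 ± 0.13, or 1.27-fold (1.05 to 1.54), with an adjusted p of 0.399 (edgeR), the smallest among the 10 genes. Ddit4 had 76.7, 63.2 and 55.8 CPM in WT, 73.2, 69.2 and 58.8 CPM in het, and 86.1 and 79.0 CPM in fl/fl. Its fl/fl libraries were the highest of all, and the spread within each of the other genotypes was wide. Its log2 fold change was 0.34 ± 0.14, or 1.27-fold (1.03 to 1.55), with an adjusted p of 0.450 (edgeR). Sesn2, in contrast, had 9.92, 9.31 and 8.23 CPM in WT, 5.44, 5.73 and 9.49 CPM in het, and 8.86 and 5.26 CPM in fl/fl. Libraries of the floxed genotypes were split between the control level and a lower level, and the log2 fold change of -0.37 ± 0.32 had an adjusted p of 0.813 (edgeR).

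Among the transcription factors, Atf4 was at 221, 243 and 227 CPM in WT, at 229, 224 and 244 CPM in het, and at 221 and 287 CPM in the libraries labelled fl/fl 1 and 2. All libraries lay within a narrow range except the library labelled fl/fl 2, whose Dot1l level over the whole gene was inside the WT range. The log2 fold change over WT was 0.14 ± 0.11, or 1.102-fold (0.942 to 1.29), with an adjusted p of 0.767 (edgeR), and it was -0.06 without that library and 0.31 without the library labelled fl/fl 1. Ddit3 had 9.84, 11.73 and 8.23 CPM in WT, 11.4, 6.29 and 9.56 CPM in het, and 11.81 and 11.74 CPM in fl/fl. It was the fifth gene whose fl/fl libraries stood above all controls, but the highest control was at nearly the same level, and the log2 fold change of 0.25 ± 0.28, or 1.19-fold (0.791 to 1.78), had an adjusted p of 0.883 (edgeR). Atf5 had 9.19, 5.64 and 11.03 CPM in WT, 8.37, 11.04 and 8.61 CPM in het, and 9.07 and 8.93 CPM in fl/fl. Its fl/fl libraries were in the middle of the control range (log2 fold change 0.06 ± 0.30, adjusted p = 0.985, edgeR).

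The feedback and glutathione genes were measured less precisely. Chac1 had 5.52, 7.60 and 4.16 CPM in WT, 3.66, 4.50 and 5.87 CPM in het, and 5.41 and 3.02 CPM in fl/fl, with a log2 fold change of -0.44 ± 0.40 (adjusted p = 0.821, edgeR). Trib3 had 1.89, 0.513 and 0.694 CPM in WT, 0.907, 0.738 and 0.843 CPM in het, and 0.492 and 1.08 CPM in fl/fl. Both genes overlapped between genotypes. For Trib3 the 95% interval of the ratio of fl/fl to WT ran from 0.152 to 3.82. The direction of any difference in this transcript was thus not resolved in these libraries.

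**Figure D2:**
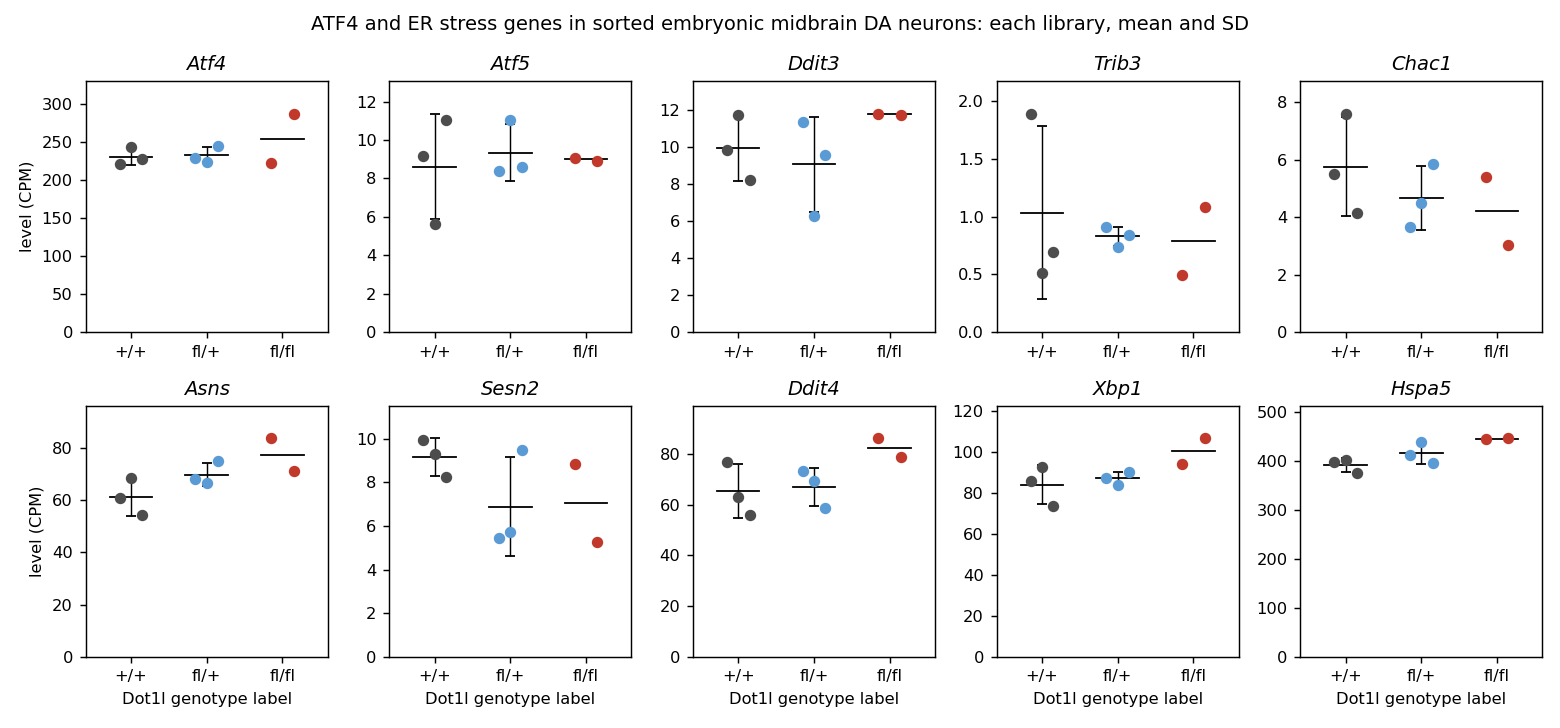
Level in CPM of each of the 10 genes in each of the 8 libraries by genotype label, with each axis starting at 0. Dots are libraries, horizontal bars are means, and error bars are SD where n = 3. Hspa5, Xbp1, Ddit4, Asns and, narrowly, Ddit3 have both fl/fl dots above all 3 WT dots.

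Over the 10 genes the median log2 fold change of fl/fl over WT was 0.16, and 7 of 10 were above 0. Over all genes tested the median was 0.00, and 49.5% were above 0. The median over the 10 genes of the log2 CPM minus the WT mean was 0.03, 0.06 and -0.17 in WT 1 to 3, 0.05, -0.02 and 0.05 in het 1 to 3, and 0.15 and 0.24 in the libraries labelled fl/fl 1 and 2. Both fl/fl libraries were thus above the other 6 on this score, and WT 3 was the lowest. The count of 4 genes at an unadjusted p under 0.05 was 0 without WT 3 (5.85% of all genes), 2 without WT 1 (6.71%) and 4 without WT 2 (13.5%). It was 2 without each of het 1, 2 and 3 in turn (8.73%, 8.53% and 8.58%). Percentages are the share of all genes at that p in the same fit, which was 9.27% with all 8 libraries. The log2 fold changes without the library labelled fl/fl 2 were 0.45 for Asns, 0.40 for Ddit4, 0.17 for Xbp1, 0.19 for Hspa5 and 0.25 for Ddit3, and without the library labelled fl/fl 1 they were 0.22, 0.28, 0.34, 0.19 and 0.24. The study took embryos of the 3 genotypes from the same females, and with a block for the replicate number the count was 1 (Asns), beside 7.69% of all genes. With an offset for the exon length and GC content of genes in each library the count was 0, beside 6.72% of all genes. The log2 fold changes were then 0.24 for Asns, 0.29 for Ddit4, 0.21 for Xbp1 and 0.13 for Hspa5.

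**Figure D3:**
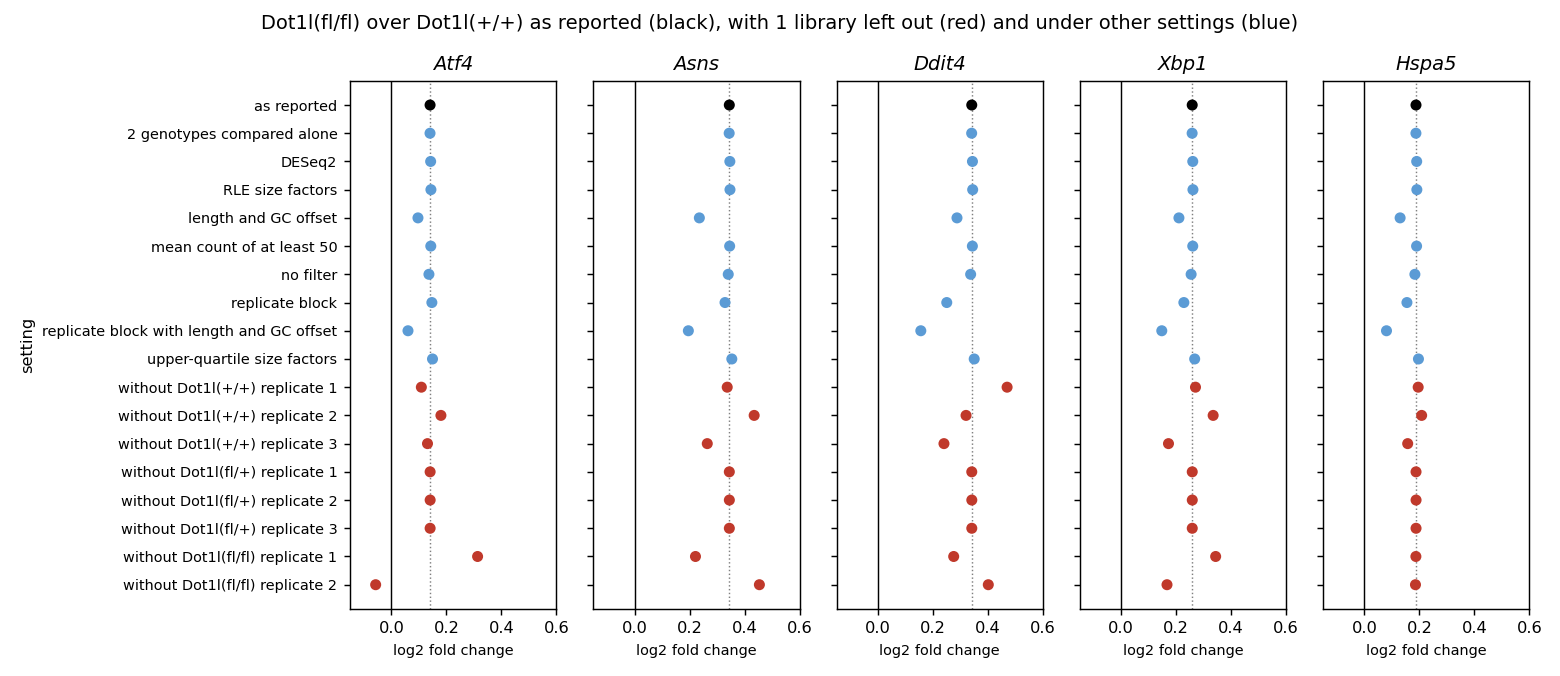
Log2 fold change of fl/fl over WT for Atf4, Asns, Ddit4, Xbp1 and Hspa5 as reported (black), with 1 library left out (red) and under the other settings (blue). Asns, Ddit4, Xbp1 and Hspa5 stay above 0 under every setting drawn, while Atf4 is at -0.06 without the library labelled fl/fl 2.

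Gene groups outside the pathway were summed in the same libraries. Immediate early genes and other genes that respond to tissue dissociation summed to 1329 and 1336 CPM in the libraries labelled fl/fl, above 977 to 1151 CPM in WT and 949 to 1197 CPM in het. Of all genes, 4.24% were higher in fl/fl than in WT at an unadjusted p under 0.05 (edgeR) and 5.03% were lower. Of the 12 dissociation genes, 6 were higher at that p and none was lower, with a median log2 fold change of 0.30. The most abundant was Jun, at 450 to 502 CPM in WT and at 570.5 and 541.8 CPM in fl/fl. Dusp1, a phosphatase of MAP kinases, was at 110 ± 16.9 CPM (SD, n = 3) in WT and at 161 and 166 CPM in fl/fl (log2 fold change 0.57 ± 0.12, adjusted p = 0.147, edgeR). Fos (0.34 ± 0.11, adjusted p = 0.289) and Junb (0.55 ± 0.19, adjusted p = 0.331) were also higher in both fl/fl libraries than in all controls. Hypoxia genes summed to 344 and 366 CPM in fl/fl and to 323 to 324 CPM in WT, and 1 of 10 tested, Ldha (0.34 ± 0.13, adjusted p = 0.384), was higher at an unadjusted p under 0.05. Targets of p53 summed to 470.3 and 503 CPM against 388 to 457 CPM, and 2 of 10 were higher at that level, Btg2 (0.73 ± 0.14, adjusted p = 0.099) and Cdkn1a (0.42 ± 0.16, adjusted p = 0.397). Glucocorticoid response genes overlapped between the genotypes in their sum, and 1 of 6, Fkbp5, was lower (-0.28 ± 0.12, adjusted p = 0.487). Without the library labelled fl/fl 2, the dissociation genes had a median of 0.33. The medians of the hypoxia genes and of the p53 targets then went from 0.15 to -0.00056 and from 0.035 to -0.093. The dissociation, hypoxia and p53 medians were 0.23, 0.048 and 0.051 without the library labelled fl/fl 1. Ldha in the library labelled fl/fl 2 (104.8 CPM) was inside the WT range of 89.3 to 105.4 CPM. Ldha and Cdkn1a stood at 0.56 and 0.60 without that library. They stood at 0.069 and 0.21 without the library labelled fl/fl 1. Btg2 stood at 0.50 ± 0.16 without the library labelled fl/fl 2 and at 0.93 ± 0.15 without the library labelled fl/fl 1. The part of these responses in the values of the 10 genes was not tested.

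Markers of other cells were low beside those of DA neurons. Markers of GABAergic neurons, led by Slc32a1, summed to 232 and 260 CPM in fl/fl and to 201 to 217 CPM in WT. Blood markers, led by Hbb-bs, summed to 17.0 and 40.4 CPM in fl/fl and to 13.7 to 18.1 CPM in WT, and endothelial markers, led by Kdr, to 9.14 to 11.8 CPM against 4.90 to 8.33 CPM. The endothelial sum reached 14.6 CPM in het. Markers of microglia, led by Csf1r, of progenitors, led by Vim, and of glutamatergic neurons, led by Slc17a6, overlapped between fl/fl and WT. Those of oligodendrocyte precursors, led by Olig1, were at 7.49 and 9.07 CPM in fl/fl and at 9.19 to 14.1 CPM in WT, and those of meninges and pericytes, led by Rgs5, of serotonergic neurons, led by Slc6a4, and of choroid plexus, led by Folr1, stayed under 7 CPM in every library. The part of these cells in the values of the 10 genes was not tested.

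The wider pathway was described with 8 lists of 130 gene names, of which 129 matched and 126 passed the filter. In fl/fl against WT edgeR called none of the 126, while 14 were higher and 2 lower at an unadjusted p under 0.05, 82 had a log2 fold change above 0, and the median was 0.09. Of all genes, 4.24% were higher and 5.03% lower at that p, and 49.5% had a log2 fold change above 0. The median over the pathway genes was 0.10 without the library labelled fl/fl 2 and 0.070 without the library labelled fl/fl 1. The upstream branch, the eIF2 kinases, eIF2 and eIF2B subunits and phosphatases, had 5 of 18 genes higher, none lower and a median of 0.18. Ppp1r15a, the stress-induced subunit that directs dephosphorylation of eIF2, was at 36.3 ± 7.60 CPM (SD, n = 3) in WT and at 55.2 and 56.5 CPM in fl/fl, above all controls (0.62 ± 0.17, adjusted p = 0.248). Eif2b4, a subunit of the exchange factor of eIF2, had 49.2 ± 5.07 CPM in WT and 67.9 and 60.7 CPM in fl/fl (0.39 ± 0.14, adjusted p = 0.341). Its het libraries, at 56.6, 63.7 and 62.5 CPM, were also above all WT libraries. The library labelled fl/fl 2 was inside that het range. Ppp1ca, a catalytic phosphatase subunit, overlapped between the genotypes (0.28 ± 0.11, adjusted p = 0.408). The median of this eIF2 list was 0.22 without the library labelled fl/fl 2 and 0.15 without the library labelled fl/fl 1. In these fits Ppp1r15a stood at 0.60 ± 0.21 and 0.64 ± 0.21, and Eif2b4 at 0.47 ± 0.17 and 0.30 ± 0.17.

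The bZIP factors that pair with or act beside ATF4, listed with Nupr1, had 1 of 10 genes higher and a median of 0.62. The median was 0.12 among those with a mean count of at least 50. The gene higher was Atf3, a stress-induced repressor that is also an early response gene, at 11.7, 7.57 and 6.11 CPM in WT and at 16.1 and 18.6 CPM in fl/fl (1.04 ± 0.31, adjusted p = 0.268), or 0.93 ± 0.39 without the library labelled fl/fl 2. Its het libraries, at 7.73, 14.8 and 6.99 CPM, overlapped the controls. The list of amino acid and one-carbon targets of ATF4 had 1 of 22 genes higher and 1 lower with a median of 0.07. It also held genes outside that metabolism, such as Sesn3, Stc2, Bbc3 and Vldlr. Stc2, a secreted glycoprotein, was at 3.79 ± 0.78 CPM in WT and at 8.64 and 5.62 CPM in fl/fl (0.91 ± 0.38, adjusted p = 0.443), whereas Sesn3, a relative of Sesn2, was at 129 ± 9.70 CPM and at 93.4 and 114 CPM (-0.31 ± 0.12, adjusted p = 0.415). The amino acid transporters had 1 of 9 higher with a median of -0.10, and that gene, the cationic transporter Slc7a3, had 24.7 CPM in the library labelled fl/fl 1 but 12.2 CPM in the library labelled fl/fl 2 beside 11.02 ± 0.41 CPM in WT (0.75 ± 0.26, adjusted p = 0.327), so that its value was 1.16 ± 0.27 without the latter and 0.14 ± 0.31 without the former. The cytosolic tRNA synthetases, listed with the tRNA export gene Xpot, had 2 of 21 genes higher with a median of 0.06. They were Sars (0.27 ± 0.10, adjusted p = 0.345, edgeR) and Gars (0.22 ± 0.10, adjusted p = 0.524, edgeR), which charge tRNAs with serine and glycine. The median of this list was 0.10 without the library labelled fl/fl 2 and 0.029 without the library labelled fl/fl 1. The median of the amino acid and one-carbon targets was 0.15 and -0.10 in these fits.

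On the ER side, chaperones and folding enzymes had 3 of 21 genes higher, none lower, 15 above 0 and a median of 0.17. Calr, the lectin chaperone calreticulin, was at 490 ± 15.6 CPM in WT and at 648 and 523 CPM in fl/fl (0.26 ± 0.10, adjusted p = 0.361). P4hb, a protein disulfide isomerase, was at 278 ± 4.65 CPM and at 365 and 308 CPM (0.27 ± 0.10, adjusted p = 0.349), and Creld2, another isomerase of the ER, at 19.1 ± 1.07 CPM and at 26.8 and 24.1 CPM (0.42 ± 0.19, adjusted p = 0.512). All 3 were above every control in both fl/fl libraries, as was Hspa5. Such a separation from WT held for 8 of 21 genes of the list, against 12.1% of all genes. Calr in the library labelled fl/fl 2 was below all het libraries (530 to 588 CPM). P4hb in that library was inside the het range (293 to 327 CPM), and Creld2 overlapped between fl/fl and het. Calr, P4hb and Creld2 stood at 0.40, 0.39 and 0.49 without the library labelled fl/fl 2. They stood at 0.091, 0.14 and 0.34 without the library labelled fl/fl 1. Without the library labelled fl/fl 2 the list had a median of 0.19, and without the library labelled fl/fl 1 a median of 0.14. ER-associated degradation had 1 of 16 higher with a median of 0.08, Herpud1, at 36.7 ± 1.07 CPM in WT and at 45.1 and 56.3 CPM in fl/fl (0.47 ± 0.15, adjusted p = 0.289), or 0.30 ± 0.19 without the library labelled fl/fl 2. The sensors and processing enzymes had none of 9 higher and 1 lower with a median of -0.07. That gene was Ern1, which encodes IRE1, at 25.3, 23.5 and 25.3 CPM in WT, at 24.2, 16.8 and 17.8 CPM in het, and at 13.0 and 20.01 CPM in fl/fl (-0.59 ± 0.22, adjusted p = 0.376, edgeR), or -0.93 ± 0.28 without the library labelled fl/fl 2 and -0.31 ± 0.26 without the library labelled fl/fl 1. Its value was thus lower while that of Xbp1, whose mRNA it splices, was higher, and neither passed the test after adjustment.

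**Figure D4:**
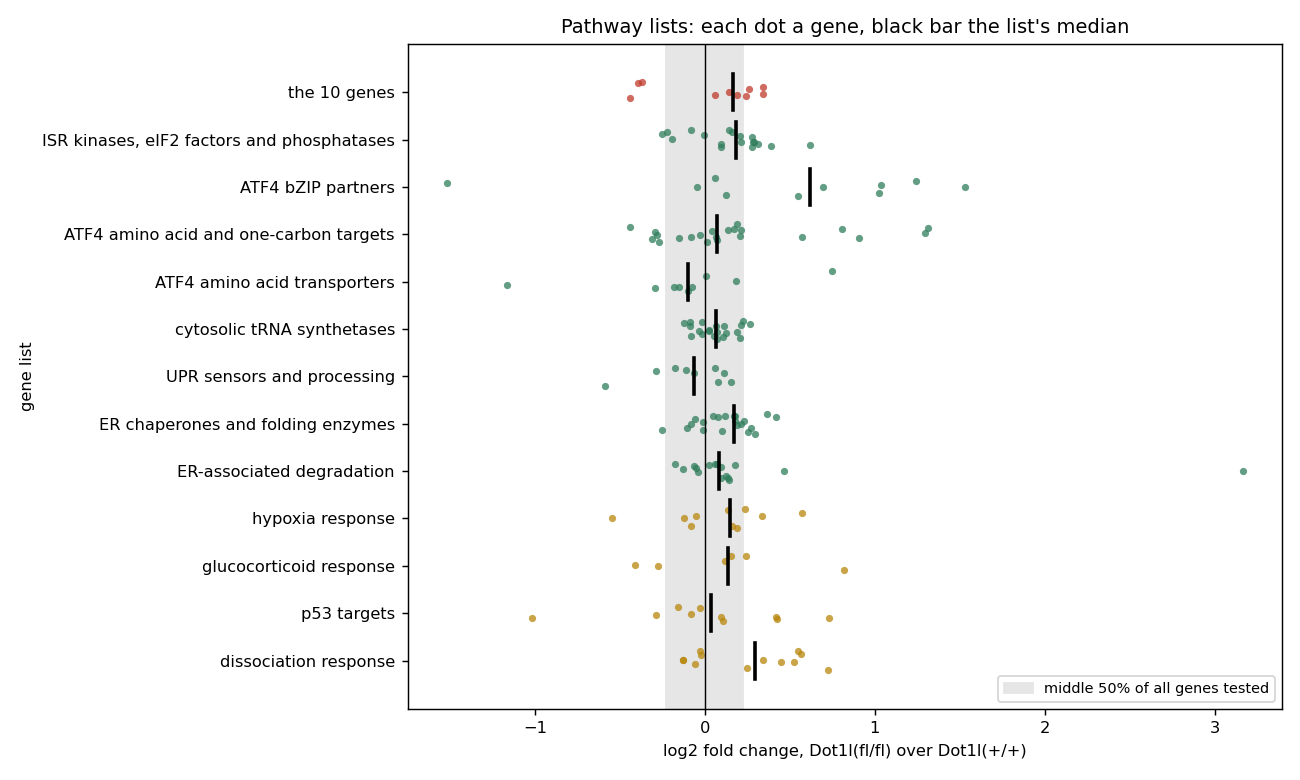
Log2 fold change of fl/fl over WT for the 10 genes (red), 8 pathway lists (green) and 4 lists of other responses (gold). Each dot is a gene and black bars are list medians. The grey band holds the middle 50% of all genes tested. The medians of the 10 genes (0.16), of the ER chaperones (0.17) and of the eIF2 list (0.18) lie right of 0, within the band.

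het was then compared with WT, with 3 libraries on each side and the controls of the first comparison. None of the 10 genes differed beyond the spread of the libraries. edgeR called 0 of 17988 genes (percent called 0.0) and DESeq2 0, with 903 genes (5.02%) at an unadjusted p under 0.05 by edgeR (2.16% higher and 2.86% lower), and none of the 10 was among them. The genotypes overlapped in all 10 genes, where 5.56% of all genes did not overlap and were higher and 5.97% did not overlap and were lower. The median of the 10 log2 fold changes was 0.03, and -0.01 over all genes. The largest values in size were those of Sesn2 (-0.41 ± 0.28, adjusted p = 0.946), Trib3 (-0.31) and Chac1 (-0.30), and the highest was that of Asns (0.19 ± 0.12, adjusted p = 0.940). The intervals were narrow for the abundant genes and wide for the rare ones. The 95% interval of the ratio of het to WT was 0.876 to 1.16 for Atf4, 0.946 to 1.19 for Hspa5, 0.887 to 1.21 for Xbp1 and 0.858 to 1.23 for Ddit4. For Chac1 it was 0.494 to 1.33 and for Trib3 0.198 to 3.30. Dot1l itself was lower in all het libraries than in all controls (-0.39 ± 0.13, adjusted p = 0.940). Of the 126 pathway genes, 3 were higher and 2 lower at an unadjusted p under 0.05, with a median of 0.05.

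fl/fl was last compared with het, which shares its fl/fl libraries with the first comparison. Ddit4 was higher in both fl/fl libraries than in all het libraries (0.30 ± 0.14, adjusted p = 0.998, edgeR), and alone among the 10 it had an unadjusted p under 0.05, against 4.02% of all genes (1.86% higher and 2.16% lower). edgeR called 0 of 17988 genes (percent called 0.0), and DESeq2 called 1, which was none of the 10. In 4 of the 10 genes, Ddit4, Xbp1 (0.20 ± 0.12), Ddit3 (0.38 ± 0.28) and Hspa5 (0.10 ± 0.09), both fl/fl libraries lay above all het libraries, against 10.2% of all genes, and in none did both lie below, against 9.57%. All 4 had an adjusted p of 0.998. The median of the 10 log2 fold changes was 0.11, and 0.00 over all genes. Asns (0.15 ± 0.13), Atf4 (0.13 ± 0.11), Sesn2 (0.04 ± 0.32), Atf5 (-0.05 ± 0.30), Trib3 (-0.09 ± 1.12) and Chac1 (-0.14 ± 0.40) overlapped between these genotypes. The dissociation genes had 5 of 12 higher at an unadjusted p under 0.05 in this comparison, and of the 126 pathway genes 6 were higher and none lower, with a median of 0.05.

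**Figure D5:**
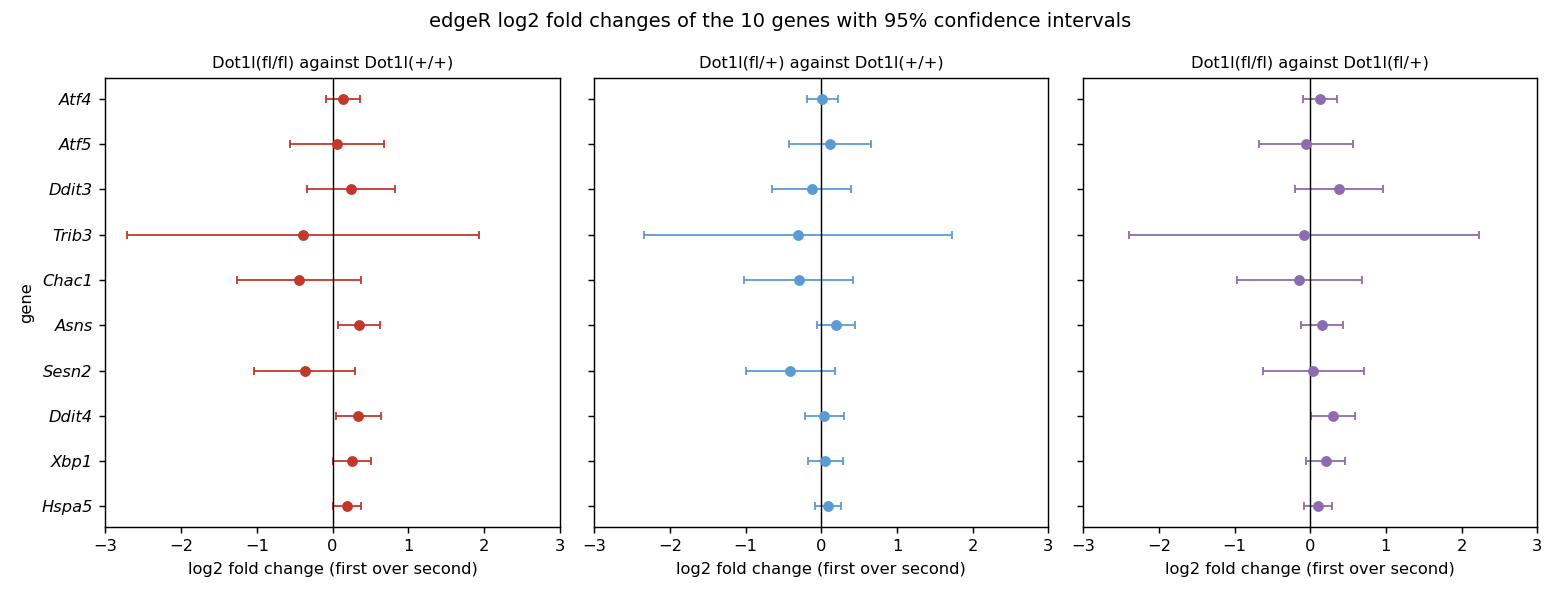
Log2 fold changes of the 10 genes by edgeR, with 95% confidence intervals, in the 3 comparisons. In fl/fl against WT the intervals of Asns, Ddit4, Xbp1 and Hspa5 lie above 0, before adjustment for multiple tests, and the interval of Trib3 is the widest in each panel.

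The genes whose levels followed Atf4 and Hspa5 most closely over the 8 libraries were sought by the root mean square difference between standardised log2 CPM profiles, among 9953 genes with a mean of at least 10 CPM. For Atf4 these were Tbp (0.34), Brox (0.34), Tspan12 (0.36), Npm1 (0.36) and Chfr (0.38), and the closest of the 5 other genes of the pathway that passed this minimum was Xbp1, at rank 241. For Hspa5 they were Rnf14 (0.25), Gm9531 (0.28), Hacd3 (0.28), Ndfip2 (0.31) and Metap2 (0.32), and the closest of the 5 others were Ddit4 at rank 190, Xbp1 at rank 485 and Asns at rank 505. None of the 6 ranked was thus among the 5 genes most like either. Trib3, Chac1, Sesn2 and Atf5 were under the minimum and were not ranked. Profiles over 8 libraries share library depth and composition, and these ranks are a description.

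The 10 genes lie on 7 chromosomes of GRCm38. Hspa5 spans 34771970 to 34777547, Chac1 119351229 to 119354381 and Trib3 152337422 to 152344032 on chromosome 2, and Ddit4 59949669 to 59951834 and Ddit3 127290774 to 127296288 on chromosome 10. Sesn2 lies on chromosome 4 (132492032 to 132510501), Asns on 6 (7675169 to 7693254), Atf5 on 7 (44812256 to 44816658), Xbp1 on 11 (5520659 to 5525893) and Atf4 on 15 (80255184 to 80257541). Ddit3 shares 68 bases of exon with Mars and 13 with Gm4189 on the opposite strand, and 105 on its own strand with a further annotated Ddit3 gene that has no row in the counts. Atf5 shares 82 bases with Nup62 and with Il4i1 on the opposite strand. These are at most 6.13% of the exon length of either gene, and since the strand setting of the counting was not stated, counts of Ddit3 and Atf5 may hold some reads of these neighbours. For the other 8 genes, no other annotated transcript matched at 90% identity or more over at least 100 bases, and no exon was shared.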

How the data were processed

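RNA of sorted YFP-positive neurons was read in 8 libraries with a strand-preserving kit. The files the authors deposited hold raw read counts, as whole numbers, of 47729 Ensembl genes. Per the labels the submitters' processing used bcl2fastq 2.17, Trimmomatic 0.30, DESeq2 1.10.1 and GRCm38.p4. The aligner, the counting program and its strand setting are not given in the sources used here. The authors also deposited 3 comparison tables with a mean normalised signal, log2 fold changes, their errors and p-values, of which only the gene symbols were used.

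Groups and replicate numbers came from sample titles. Counts were tested in edgeR 4.0.16 under R 4.3.3 with TMM scaling, the filterByExpr filter and a fit of all 3 genotypes with no covariates. Adjustment was by Benjamini-Hochberg over 17988 genes, and log2 CPM had a prior count of 2. Fold changes are given with standard errors from the F statistic. The library totals were 13616922 to 43674673 counts. Libraries came from pooled embryos, and each pregnant female gave 1 embryo of each genotype, so genotypes were matched by litter. Whether the replicate number marks the matched pools is not stated in the sources used here. Exon lengths came from GENCODE M21, found for 99.1% of identifiers.

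The 10 genes and all lists were chosen with earlier results of these data known, so counts over them are descriptions. Genes named were Dot1l and the 10 genes, up to 3 genes per pathway or response list with the smallest unadjusted p under 0.05 in fl/fl against WT, the 5 genes with profiles most like Atf4 and Hspa5, and the most abundant marker of each cell type. The fit was tested on simulated counts for fl/fl against WT with 17988 genes, and the changed genes were drawn at random whatever their level. Of 100 genes changed 1.5-fold 19% were called, of 100 changed 2-fold 59%, and 5 unchanged genes were called. Alternatives were size factors by RLE or upper quartile, DESeq2 1.42.0, no filter on low counts or a minimum mean count of 50, a fit of only the 2 genotypes compared, a block for the replicate number, a spline offset (4 degrees of freedom) for GC content and exon length, block and offset together, and each library left out in turn.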

Additional observations from a re-analysis of the deposited data

How the results depend on the processing

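Under 17 alternative settings none of the 10 genes passed the adjusted threshold in any of the 3 comparisons. Between fl/fl and WT, the 4 genes at an unadjusted p under 0.05 became 2 with only these genotypes fitted and 0 with the offset for length and GC content. They ranged from 0 to 4 with a WT or het library left out. The share of all genes at that p was 9.27% as reported, 7.74% with only these genotypes and 6.72% with the offset, and went from 5.85% to 13.5% with a WT or het library left out. The single gene between fl/fl and het became 0 with DESeq2 and with the offset, with a range of 0 to 1, and the count between het and WT ranged from 0 to 1. With each library left out, the medians over the 10 genes ranged from 0.12 to 0.22, from 0.11 to 0.19 and from -0.046 to 0.085 for fl/fl over WT, fl/fl over het and het over WT, and over all 17 settings from 0.069 to 0.22, from 0.061 to 0.19 and from -0.046 to 0.085. Trib3 had no value with a mean count of at least 50. The cause of these differences was not tested.

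The study matched genotypes by litter, but no source used here says that the replicate number marks the matched pools. Over all genes, deviations from the genotype means correlated with r from -0.031 to 0.045 in 7 same-numbered pairs and from -0.051 to 0.045 in 14 others, and over abundant genes (mean count of at least 1000) from -0.27 to 0.26 and from -0.39 to 0.37. The 2 fl/fl libraries are mirror images in this check, which therefore does not settle the pairing. With the replicate block, 1 of the 10 genes, Asns, had an unadjusted p under 0.05 between fl/fl and WT and 0 had between fl/fl and het, and with block and offset together both counts were 0 and the median of fl/fl over WT was 0.069. Atf5 in fl/fl over het turned to 0.0084 with the block.

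With a library left out, list medians of fl/fl over WT that changed sign were those of the amino acid targets (-0.10 to 0.15), the ER sensors (-0.20 to 0.098), the p53 targets (-0.093 to 0.090), the glucocorticoid genes (-0.17 to 0.33) and the hypoxia genes (-0.00056 to 0.20), and that of the bZIP factors ranged from 0.25 to 0.69. With block and offset the median was 0.068 for ER chaperones and 0.13 for dissociation genes. Over the 3 comparisons, 29 list medians with a library left out moved by more than the SD between libraries of the 10-gene median (0.089) and 259 did not, and under other settings 10 moved and 314 did not.

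Other values that changed sign were those of single genes whose genotypes overlapped, and of Dot1l. Atf4 in het over WT was -0.011 with the offset and -0.0051 with block and offset. With a library left out, fl/fl over WT ranged from -0.057 to 0.31 for Atf4, from -1.06 to 0.37 for Trib3, from -0.17 to 0.28 for Atf5 and from -0.55 to 0.062 for Dot1l. The ratio of het to WT on the log2 scale ranged from -0.025 to 0.051 for Atf4, from -0.32 to 0.075 for Ddit3, from -0.63 to 0.46 for Trib3, from -0.060 to 0.17 for Ddit4, from -0.12 to 0.34 for Atf5 and from -0.032 to 0.13 for Xbp1, and that of fl/fl to het from -0.068 to 0.30 for Atf4, from -0.75 to 0.37 for Trib3, from -0.63 to 0.21 for Chac1, from -0.40 to 0.36 for Sesn2, from -0.13 to 0.085 for Atf5 and from -0.16 to 0.45 for Dot1l. Where 1 fl/fl library remained, it was assumed to vary like the other genotypes. Depth limits Trib3 and Chac1 most. In simulated counts, 19% of genes changed 1.5-fold between fl/fl and WT were called. Those genes were drawn at random from genes of all levels, so this share does not hold for abundant genes alone. The estimated ratios of Atf4, Asns, Ddit4, Xbp1 and Hspa5 were all below 1.5-fold.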
